A study of Mus musculus with 8 samples.

Results

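The MCM helicase and origin licensing genes are the 10 genes Mcm2, Mcm3, Mcm4, Mcm5, Mcm6, Mcm7, Mcm10, Cdc45, Cdt1 and Gmnn, taken by symbol from 30802 genes with 1 symbol in the deposited table. Each of them had 1 feature (a set of probes for one transcript), and all 10 passed the level filter. Their transcripts were compared between hematopoietic stem cells of mice homozygous for elektra (Slfn2 elektra/elektra), a loss-of-function allele of the Schlafen family gene Slfn2, and of wildtype littermates (Slfn2 wt/wt). Both genotypes were on a C57Bl/6 background, no treatment was given, and ages are not stated in the sources used here. Marrow was enriched for c-Kit, and the stem cell gate was LSK (no lineage markers, with Sca-1 and c-Kit), CD150 positive, CD48 negative and CD9 high. Each genotype had 4 Affymetrix arrays, 1 per sample. By the extraction notes a sample pools bones of 2 mice, but the series text counts 4 mice per genotype, which leaves the number of animals behind an array unsettled. Elektra is a germline allele, so every cell of the animal carries it and not the stem cells alone.

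A chromosome copies itself once per division because its origins are licensed once. In G1 the origin recognition complex and Cdc6, together with Cdt1, load the ring of Mcm2 to Mcm7 onto DNA, where it stays inactive. At the start of S phase Cdc45 and the GINS proteins join the ring and turn it into the replicative helicase, with Mcm10 needed for its activation. Geminin, the product of Gmnn, binds Cdt1 in S and G2 and prevents a second loading. Most of these genes are transcribed under E2F control when a cell leaves quiescence, and adult stem cells of the marrow are mostly quiescent, so the transcripts are widely read as a sign of cell cycle entry.

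Promoter stretches with an E2F site are shown because most of these genes are transcribed under E2F control, as given above. Any link between such sites and the signals on these arrays was not tested. RefSeq promoter windows (assembly GRCm38.p6), which run from 250 bases before a start site to 50 after it, were found for 8 members, and Mcm4 and Gmnn had none. A search of both strands for the E2F site in the forms TTTCGCGC and TTTGGCGC found it in 5 of these 8 genes, namely Mcm3, Mcm5, Mcm6, Mcm7 and Cdt1. Of all 32851 windows of the same length in the table, 0.813% held a match. Capitals mark the matches and each sequence reads 5′ to 3′ along the gene.
Mcm3 (chr1:20820263-20820294, minus strand): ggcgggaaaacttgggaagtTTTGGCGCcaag
Mcm5 (chr8:75109336-75109387, plus strand): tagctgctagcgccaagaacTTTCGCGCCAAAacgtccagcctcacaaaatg
Mcm6 (chr1:128359725-128359835, minus strand): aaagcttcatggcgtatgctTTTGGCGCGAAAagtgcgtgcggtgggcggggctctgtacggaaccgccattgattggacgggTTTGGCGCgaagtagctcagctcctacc
Mcm7 (chr5:138171840-138171887, minus strand): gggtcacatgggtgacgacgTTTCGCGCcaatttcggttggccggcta
Cdt1 (chr8:122568027-122568064, plus strand): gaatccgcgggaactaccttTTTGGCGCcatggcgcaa

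Mcm5 and Mcm6 each held a pair of matches on opposite strands that share 4 bases, and Mcm6 held a further one nearer its start site. For Mcm7, which has 2 windows in the table, the match lay in 1 of them. The CCAAT box (CCAAT) was in the windows of 7 members and in 37.4% of all windows. The cell cycle homology region (TTTGAA) was in those of Mcm2 and Cdc45 and in 17.9% of all windows. The windows of Mcm2, Mcm10 and Cdc45 do not hold the E2F letters searched, which says nothing about other sequences there. A match is a run of letters and was not measured as a bound site.

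Across the members, 9 of 10 had a higher mean signal in elektra stem cells, where 53.1% of all 15710 genes tested had. The median log2 difference, elektra minus wildtype, was 0.29 over the members and 0.01 over all genes tested. Gmnn differed most, at 1.44-fold, and the helicase subunits Mcm2 to Mcm7 differed by 1.20- to 1.32-fold, while Mcm10 was nearly level. None of the 10 passed the test over all genes (limma with Benjamini-Hochberg adjustment, threshold 0.05), which 0.0382% of genes passed. At an unadjusted p of 0.05, limma counted 6 members as higher, where 7.02% of all genes were, and 0 as lower, where 3.95% were. Over all genes these shares were 5.40% higher and 5.07% lower after quantile normalization, which left 3 members higher, and 9.57% higher and 2.11% lower with arrays centred on their medians, which left 6. The count of higher members was 3 when elektra replicate 3 was left out, where 7.21% of all genes were higher. It was also 3 without wildtype replicate 2, where 5.42% were, and without wildtype replicate 3, where 6.02% were. With the interquartile range of each array's signals as a covariate the count was 2, where 4.52% were. It was 1 with replicate 3 of both genotypes left out, the arrays of low Xist signal, where 6.1% were. Xist read 5.06 on that elektra array and 5.37 on that wildtype array, against 10.26 to 10.79 on the others. In bulk samples like these, more cells of a kind and more RNA per cell cannot be told apart.

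**Figure D1:**
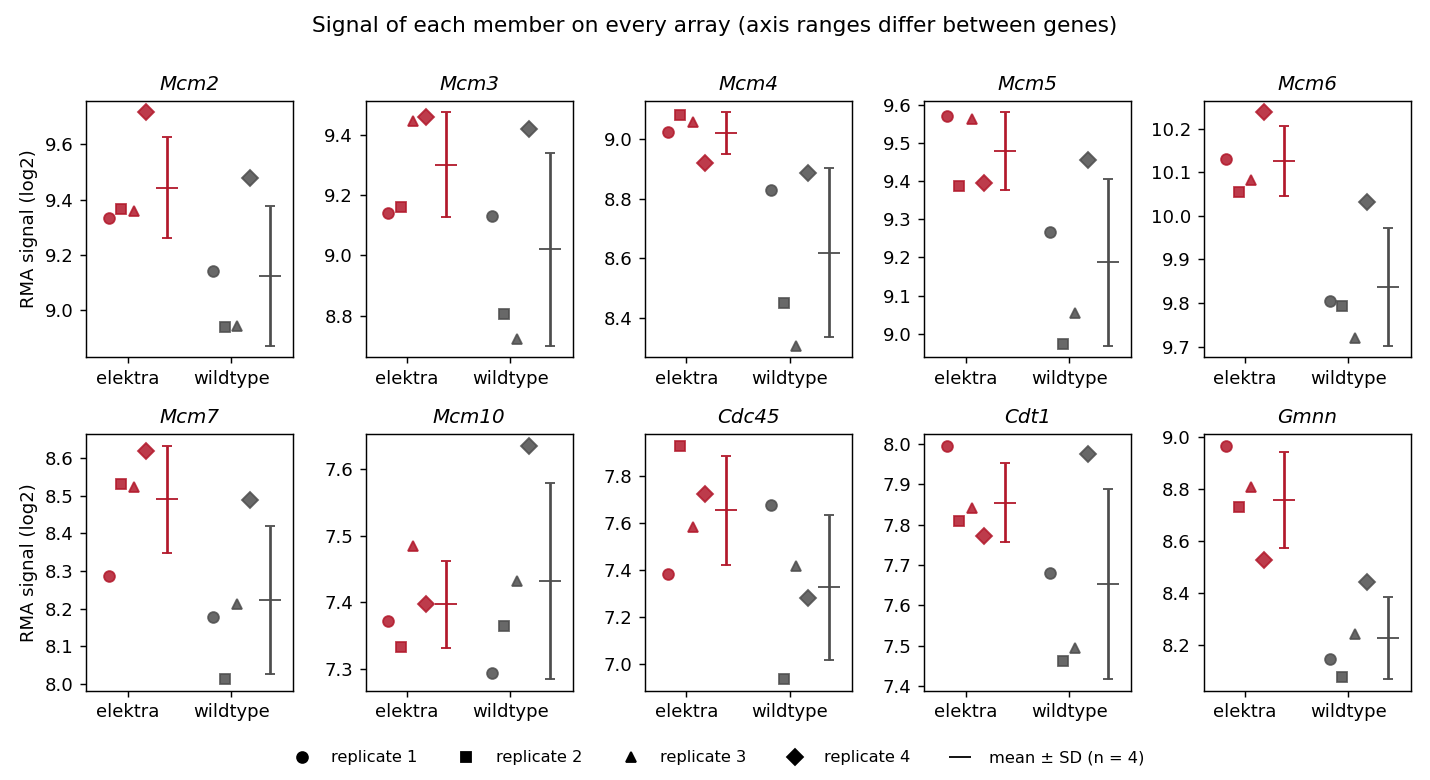
RMA signal (log2) of each of the 10 genes on every array, elektra left of wildtype, with marker shapes for replicates 1 to 4 and the mean ± SD of 4 arrays beside them. Gmnn, Mcm4 and Mcm6 are the genes whose genotypes do not overlap, and wildtype replicate 4 is the highest wildtype array in 9 of the 10 panels.

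Among the 6 ring subunits, Mcm4 and Mcm6 were those whose genotypes were separate. Arrays are given from replicate 1 to replicate 4, as log2 signals. Mcm4 read 9.02, 9.08, 9.06 and 8.92 in elektra, against 8.83, 8.45, 8.31 and 8.88 in wildtype. Each elektra array was higher than each wildtype array, although elektra replicate 4 and wildtype replicate 4 nearly met. The log2 difference was 0.40 ± 0.13 (SE), with a 95% interval of 0.10 to 0.70 (limma adjusted p = 0.359, unadjusted 0.0130). Mcm6 read 10.13, 10.05, 10.08 and 10.24 in elektra, against 9.81, 9.79, 9.72 and 10.03 in wildtype. Its genotypes did not overlap either, and the difference was 0.29 with a standard error of 0.10 (limma adjusted p = 0.359, unadjusted 0.0132).

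Mcm2 read 9.33, 9.37, 9.36 and 9.72 in elektra, against 9.14, 8.94, 8.94 and 9.48 in wildtype. The first 3 elektra arrays lay close together, and wildtype replicate 4 exceeded them, so the genotypes overlapped. The difference was 0.32 ± 0.14 (SE; limma adjusted p = 0.449, unadjusted 0.0462). Mcm5 read 9.57, 9.39, 9.56 and 9.40 in elektra, against 9.27, 8.97, 9.05 and 9.45 in wildtype, again with wildtype replicate 4 among the elektra values. It differed by 0.29 ± 0.12 (SE; limma adjusted p = 0.408, unadjusted 0.0331).

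Mcm7 read 8.29, 8.53, 8.52 and 8.62 in elektra, against 8.18, 8.01, 8.21 and 8.49 in wildtype. Here elektra replicate 1 was the low array of its group and lay under wildtype replicate 4. The difference was 0.27 ± 0.12 (SE; limma adjusted p = 0.451, unadjusted 0.0483). Mcm3 read 9.14, 9.16, 9.44 and 9.46 in elektra, against 9.13, 8.81, 8.72 and 9.42 in wildtype. Its wildtype arrays spread over 0.32 (SD, n = 4), the widest of the 10 genes, and its difference of 0.28 had an interval of -0.07 to 0.63 (limma adjusted p = 0.534). Mcm3 was thus the subunit that missed the unadjusted threshold, at 0.103, although its difference was close to those of Mcm2, Mcm5, Mcm6 and Mcm7.

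The 4 factors around the ring varied more. Gmnn read 8.97, 8.73, 8.81 and 8.53 in elektra, against 8.15, 8.08, 8.24 and 8.44 in wildtype. Its means were 8.76 ± 0.18 in elektra and 8.23 ± 0.16 in wildtype (SD, n = 4 each), with no overlap. The difference was 0.53 ± 0.12 (SE), with an interval of 0.26 to 0.79, and it did not pass (limma adjusted p = 0.211, unadjusted 0.00114). Over the 19 alternative settings it lay between 0.46 and 0.61, and the unadjusted p stayed under 0.05 in each, while the adjusted p ran from 0.125 to 0.483.

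Cdt1, the loading factor that geminin blocks, read 7.996, 7.81, 7.84 and 7.77 in elektra, against 7.68, 7.46, 7.49 and 7.98 in wildtype. Wildtype replicate 4 was about as high as the highest elektra array, and the difference of 0.20 had an interval of -0.07 to 0.47 (limma adjusted p = 0.564). Cdc45, the helicase cofactor, read 7.38, 7.93, 7.58 and 7.72 in elektra, against 7.67, 6.94, 7.41 and 7.28 in wildtype. Its groups overlapped through a low elektra replicate 1 and a high wildtype replicate 1, and the difference was 0.33 with an interval of -0.04 to 0.69 (limma adjusted p = 0.490). Mcm10, the activation factor, read 7.37, 7.33, 7.48 and 7.40 in elektra, against 7.29, 7.36, 7.43 and 7.64 in wildtype. The elektra arrays fell inside the wildtype range, and the difference was -0.03 with an interval of -0.25 to 0.18 (limma adjusted p = 0.922), and its sign turned with arrays centred on their medians, so its direction was not settled. Whether Mcm10 differs from the ring subunits in its response was not tested.

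**Figure D2:**
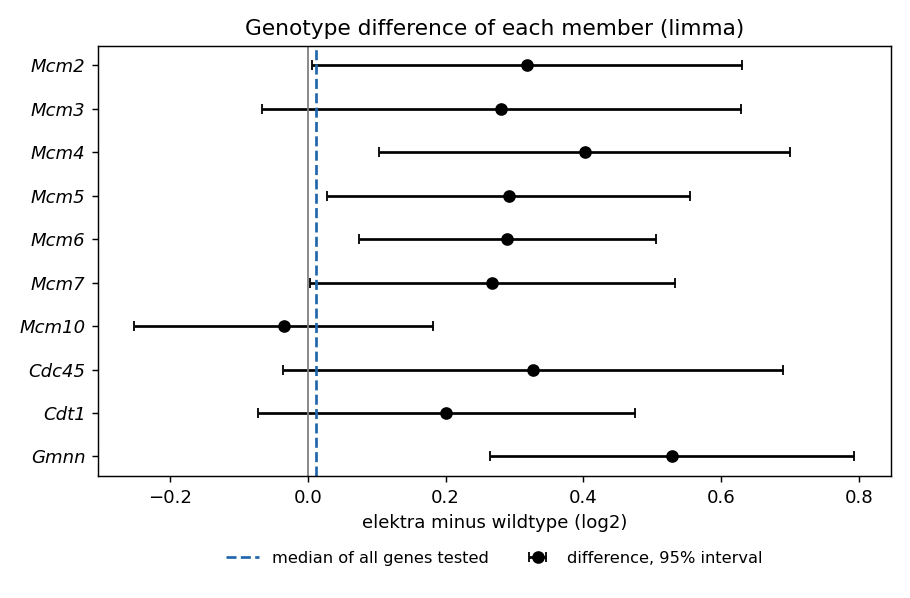
Log2 difference, elektra minus wildtype, of each gene with its 95% interval from limma, and the median of all 15710 genes tested as a dashed line. The intervals of Gmnn, Mcm2, Mcm4, Mcm5, Mcm6 and Mcm7 lie above 0, and those of Mcm3, Mcm10, Cdc45 and Cdt1 reach across it.

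Set array by array, elektra was higher in 16 of 16 pairs of an elektra and a wildtype array for Gmnn, Mcm4 and Mcm6. It was higher in 15 pairs for Mcm7, in 14 for Mcm3 and Mcm5, in 13 for Mcm2, Cdc45 and Cdt1 and in 8 for Mcm10. The genotypes thus did not overlap for 3 members, all higher in elektra, where every elektra array lay above every wildtype array for 3.9% of all genes. After quantile normalization this count was 1, where 2.72% of all genes were so placed, and without wildtype replicate 4 it was 8, where 6.65% were. In the authors' deposited table the unadjusted p-value was 0.00472 for Gmnn, 0.0102 for Mcm6 and 0.0333 for Mcm4, and it was above 0.05 for the other members.

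The difference between the genotypes came with a difference among the wildtype arrays. Wildtype replicate 2 held the lowest value of 6 members and wildtype replicate 3 that of 3, and neither held the highest of any. The mean of the 10 log2 signals was 8.72, 8.74, 8.77 and 8.78 on the elektra arrays, against 8.51, 8.28, 8.35 and 8.71 on the wildtype arrays. The elektra arrays were nearly alike, while wildtype replicate 4 lay almost at their level and above its own mean over all arrays for 8 of the 10 genes. Wildtype replicate 4 also had the highest wildtype Slfn2 signal, at 8.41 against 7.22 to 7.53 on the other wildtype arrays, and elektra arrays had 7.79 to 8.17. Wildtype replicate 2, the lowest for the members, had the narrowest spread of signals of all arrays, with an interquartile range of 2.41 where the others had 2.48 to 2.67. With that range as a covariate the members' median difference was 0.27, and 2 members were higher at the unadjusted threshold, where 4.52% of all genes were. Quantile normalization, which gives all arrays the same spread, left a median of 0.24.

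**Figure D3:**
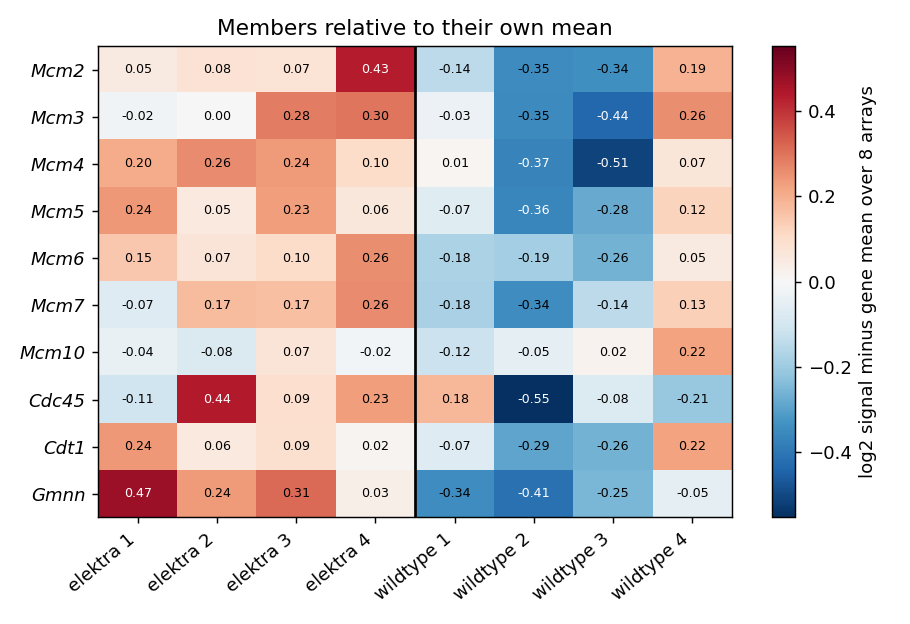
Log2 signal of each gene minus its mean over the 8 arrays, elektra columns left of wildtype, with red above and blue below the mean. Wildtype replicates 2 and 3 are blue for most genes, from -0.55 and -0.51 at the lowest, and wildtype replicate 4 is red for 8 genes.

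As a description, the members' signals went together over the 8 arrays, with a median Pearson r of 0.72 over 45 pairs of genes, 44 of them positive. The genes read on an array share its sample, its hybridization and its RMA normalization, and genotype adds to these correlations. With the genotype means taken out the median was 0.56 and 41 pairs were positive. Mcm5 and Cdt1 were the closest pair, at 0.95 before and after, and Mcm2 and Mcm6 stood at 0.93 in both. Cdc45 and Mcm10 had the lowest median r with the other members, at 0.44 for Cdc45 and 0.29 for Mcm10, and were the pair with a negative r, at -0.31. With genotype means taken out, Mcm10 stood at 0.59, near the members' overall value, while Cdc45 stood at 0.09 and Gmnn at 0.21.

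The genes whose signals were most like the mean of the 10, of 12239 named genes outside them, were Tm6sf1 at r = 0.99, Chd3 at 0.98, Stag1 at 0.97, Psmc2 at 0.96 and Ruvbl2 at 0.96 (8 arrays). Chd3 encodes a chromatin remodelling helicase, Stag1 a cohesin subunit, Psmc2 a proteasome ATPase and Ruvbl2 an ATPase of several chromatin complexes. With genotype means taken out, their r lay between 0.90 and 0.97. Tm6sf1 averaged 8.82 in elektra and 8.08 in wildtype, a log2 difference of 0.75 (limma adjusted p = 0.308). The other 4 differed by 0.26 to 0.34, and their limma adjusted p ran from 0.347 to 0.449. These genes were picked for their likeness, so it is no result of its own.

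The rest of the licensing pathway was read from lists chosen with earlier results of these data known, and limma passed 0 genes of any of them over all genes. Here and for the lists that follow, counts at the unadjusted threshold stand beside 7.02% of all genes higher and 3.95% lower. Genotypes without overlap stand beside 3.9% of all genes with elektra above wildtype, and 372 of 15710 with elektra below. The origin recognition complex and its loader had 7 tested genes of 8, with a median log2 difference of 0.23, and at the unadjusted threshold 2 were higher and 0 lower. The higher ones were Cdc6, the ATPase that loads the ring together with Cdt1, at 0.42 ± 0.18 (SE), and Orc2 at 0.27 ± 0.11 (SE), with limma adjusted p = 0.433 for Cdc6 and 0.408 for Orc2. Cdc6 read 7.52, 7.82, 7.68 and 7.43 in elektra, against 7.52, 6.69, 7.09 and 7.49 in wildtype, so its genotypes overlapped and wildtype replicate 2 was again lowest. Lrwd1, which binds the complex on chromatin, differed by 0.23. Orc5, named after its values were seen, differed by -0.18 (limma adjusted p = 0.703). Orc1, the subunit that varies through the cell cycle, lay below the level filter, at 6.27 ± 0.16 in elektra and 5.95 ± 0.17 in wildtype (SD, n = 4 each).

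The activation and firing genes, which turn the loaded ring on, had a median of 0.22, and all 12 tested had a higher mean in elektra. At the unadjusted threshold 5 of them were higher and 0 lower. Gins2, a subunit of the GINS complex that joins the ring with Cdc45, read 8.18, 7.75, 8.01 and 7.88 in elektra, against 7.68, 7.41, 7.58 and 7.68 in wildtype. Its genotypes did not overlap, and the difference was 0.37 ± 0.11 (SE; limma adjusted p = 0.333). Dbf4, which activates the Cdc7 kinase that phosphorylates the ring, differed by 0.40, and Gins1 by 0.33 (limma adjusted p = 0.346 for Dbf4 and 0.371 for Gins1).

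Genes that limit Cdt1 or open S phase had a median of 0.24, and at the unadjusted threshold 7 of 12 tested were higher and 0 lower. Dtl, the adaptor of the ubiquitin ligase that destroys Cdt1 in S phase, read 9.80, 9.54, 9.51 and 9.93 in elektra, against 9.44, 9.34, 9.16 and 9.19 in wildtype. Its genotypes did not overlap, and it differed by 0.41 ± 0.12 (SE; limma adjusted p = 0.308). Cyclin E2 (Ccne2) differed by 0.43 and cyclin E1 (Ccne1) by 0.33 (limma adjusted p = 0.359 for Ccne2 and 0.383 for Ccne1).

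The median of the other MCM genes lay near 0. The 4 tested had a median of -0.05, and at the unadjusted threshold 0 were higher and 0 lower. Mcmbp, which binds MCM subunits, differed by 0.20, Mcm9 by -0.10 and Mcm8 by -0.06 (limma adjusted p = 0.510 for Mcmbp, 0.837 for Mcm9 and 0.905 for Mcm8). Mcmdc2 lay below the level filter, at 4.98 ± 0.14 in elektra and 5.19 ± 0.05 in wildtype (SD, n = 4 each). Mcm8 and Mcm9 act in recombination rather than in origin licensing. A test between this list and the ring subunits was not made.

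Among the transcriptional regulators, the 12 tested E2F and pocket protein genes had a median of 0.17, and at the unadjusted threshold 3 were higher and 0 lower. E2f8, an atypical E2F that represses its targets, differed by 0.53, the E2F partner Tfdp1 by 0.29 and the pocket protein gene Rbl1 (p107) by 0.31 (limma adjusted p = 0.316 for E2f8, 0.321 for Tfdp1 and 0.408 for Rbl1). Tfdp1 read 10.76, 10.79, 10.68 and 10.73 in elektra, against 10.49, 10.32, 10.42 and 10.57 in wildtype, without overlap. Rbl2 (p130), the pocket protein of quiescent cells, lay lower on every elektra array than on any wildtype array, at 9.68 ± 0.14 in elektra and 9.89 ± 0.09 in wildtype (SD, n = 4 each; limma adjusted p = 0.468). It fell outside the rule for naming and is named after its values were seen.

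**Figure D4:**
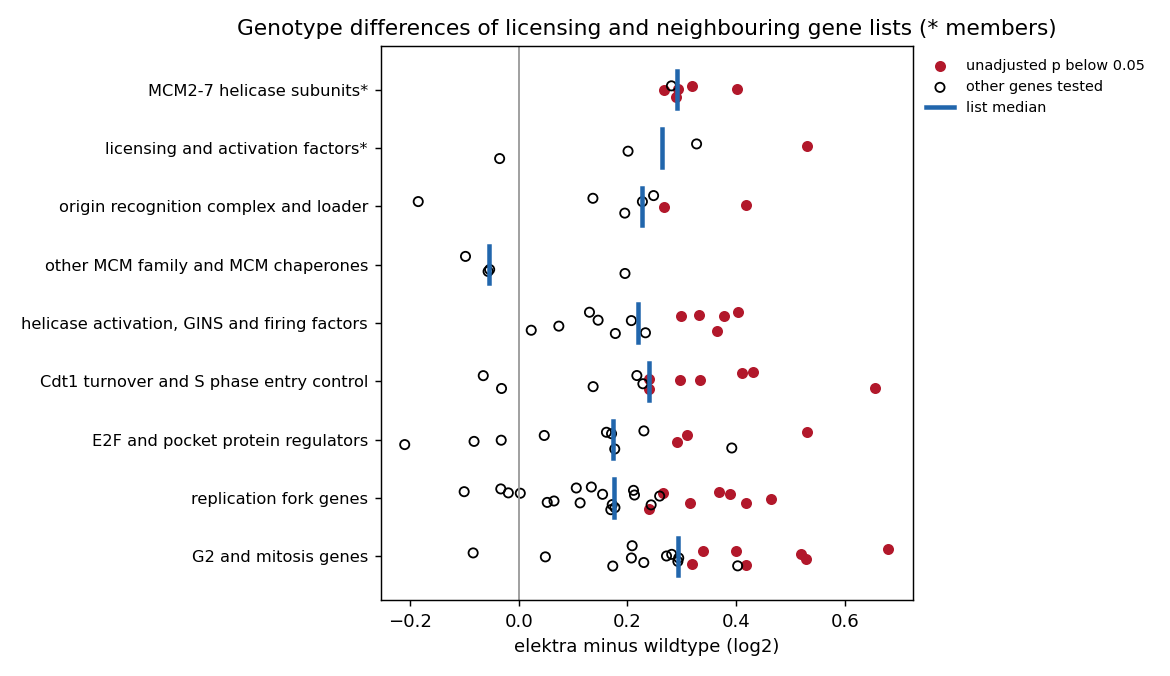
Log2 differences, elektra minus wildtype, of the tested genes of each licensing and cell cycle list, with red points for an unadjusted p below 0.05, open points for the other genes and a blue bar at the list median. Among these lists, which leave out the cell type markers, the medians of the ring subunits (0.29) and of G2 and mitosis (0.29) lie highest. The median of the other MCM genes lies near 0.

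Beyond licensing, the 24 tested replication fork genes had a median of 0.17, and at the unadjusted threshold 7 were higher and 0 lower. They included the primase subunit Prim1 at 0.46, the fork protection gene Tipin at 0.39 and the single-strand binding subunit Rpa3 at 0.37. Their limma adjusted p was 0.359 for Prim1, 0.380 for Tipin and 0.383 for Rpa3. For the 18 genes of G2 and mitosis the median was 0.29, with 7 higher and 0 lower. Cyclin B2 (Ccnb2) differed by 0.68, the centromere motor gene Cenpe by 0.53 and the spindle checkpoint gene Bub1b by 0.42. Limma adjusted p was 0.256 for Ccnb2, 0.259 for Cenpe and 0.308 for Bub1b. The medians of the members and of the mitotic genes were thus alike. The mitotic mean was 7.81 on elektra replicate 1, against 7.38 to 7.60 on the other elektra arrays. The members' mean was nearly alike on the elektra arrays, at 8.72 to 8.78, so their order there carries little. Whether the members and the mitotic genes changed together was not tested.

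Markers of the labelled cell type were present. All 12 stem cell markers, Kit, Ly6a, Slamf1, Cd9, Procr, Hlf and Mecom among them, passed the level filter, and their mean signal was 10.15 to 10.30 on elektra arrays and 10.17 to 10.37 on wildtype arrays. Cd48, which the sort excludes, lay below the filter. Markers of multipotent progenitors, the next and more proliferative stage, were also higher in elektra. They ranged from 7.29 to 7.52 in elektra and from 6.73 to 7.17 in wildtype (mean log2 signal of 7 genes). At an unadjusted limma p of 0.05, 4 of 5 tested were higher. As for the members, wildtype replicate 4 was the highest wildtype array. The lowest was wildtype replicate 1, whereas for the members it was wildtype replicate 2. In elektra the progenitor mean was highest on replicate 1. The members' mean was lowest there, but its elektra values were nearly alike, at 8.72 to 8.78, so their order carries little. Plac8 of the progenitor list passed over all genes, at a difference of 1.30 (limma adjusted p = 0.0114). The part of the progenitor markers in the members' difference was not tested.

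Megakaryocyte and platelet markers, some of which stem cells also express, ranged from 8.17 to 8.30 in elektra and from 7.89 to 8.13 in wildtype (6 genes). At the unadjusted threshold 2 of the 5 tested, Pf4 and Itga2b, were higher, and their part in the members' difference was not tested. The mean levels of the other lists of mature cell markers overlapped between genotypes. The 5 erythroid markers found ranged from 5.71 to 6.67 in elektra and from 5.69 to 6.09 in wildtype, and the 9 granulocyte and monocyte markers from 6.34 to 7.07 in elektra and from 6.51 to 6.80 in wildtype. The high end of both was elektra replicate 4. The 6 B cell markers ranged from 5.73 to 6.08 in elektra and from 5.88 to 5.96 in wildtype, and the 5 T and NK cell markers from 5.93 to 6.21 in elektra and from 5.71 to 6.01 in wildtype. Single genes of these lists did not all overlap, and the 2 named here were chosen after their values were seen. Nkg7, a cytotoxic granule gene and the 1 tested gene of the T and NK list, averaged 8.34 ± 0.20 in elektra and 7.77 ± 0.24 in wildtype (SD, n = 4 each), with every elektra array higher (limma adjusted p = 0.259). Ctsg, a neutrophil granule protease gene, averaged 6.19 ± 0.14 in elektra and 6.66 ± 0.43 in wildtype, with every elektra array lower (limma adjusted p = 0.402). Their part in the members' difference was not tested. Of these lists, Cd79a, Ms4a1, Cd3e, Cd3g, Cd4 and Cd8a were among the genes below the level filter.

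**Figure D5:**
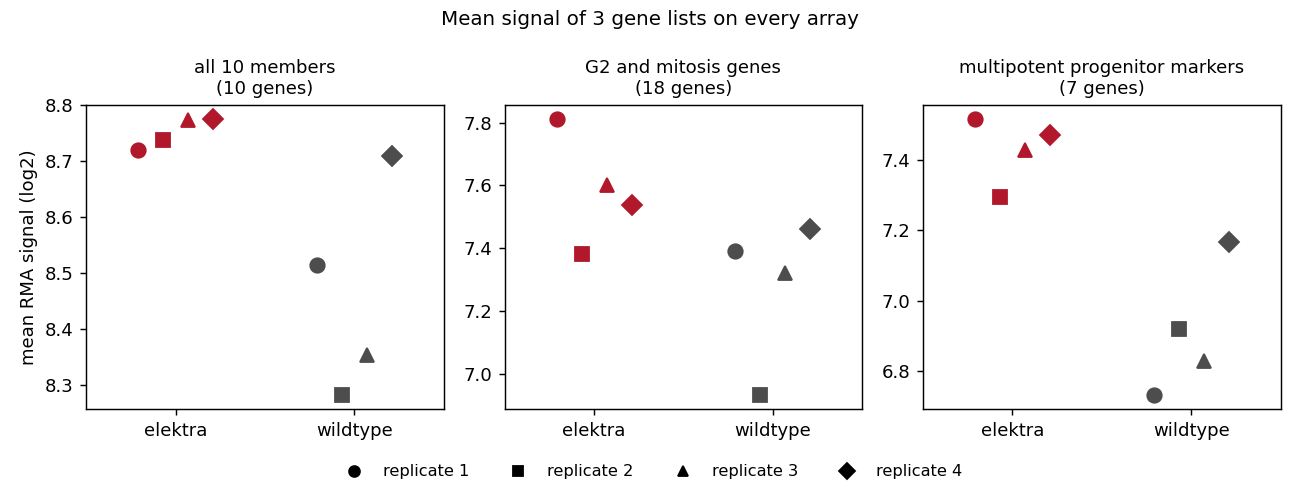
Mean RMA signal (log2) of the 10 members, of 18 genes of G2 and mitosis and of 7 multipotent progenitor markers on every array, elektra left of wildtype, with marker shapes for replicates 1 to 4. Wildtype replicate 4 is the highest wildtype array in each panel, and the genotypes overlap for the mitotic genes.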

How the data were processed

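RMA in Affymetrix Expression Console 1.4 gave the authors' log2 signals, per the submitters' processing notes. The deposited workbook also holds the authors' mean log2 signals, their log2 ratio, a signed fold change score (not used) and an unadjusted t-test p-value. The array design and annotation release were not given in the labels. A series table of log2 signals deposited by the authors served as an alternative.

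Features with 1 symbol and a mean at or above the median of feature means (6.17 log2) were kept, the highest feature per gene, which left 15710 genes. The linear model of limma 3.58.1 (lmFit, eBayes; R 4.3.3) gave elektra minus wildtype with two-sided p-values and no covariate, and Benjamini-Hochberg adjustment ran over all of these genes. These steps were also run on simulated data, with independent noise for each gene and planted changes larger than that of any member. That run does not cover genes that vary together or changes as small as those of the members. With 4 arrays a genotype, the number of arrays limits the precision (median standard error 0.12 log2). The p-values weigh the mean difference against the spread between samples, which limma moderates over all genes. If a sample pools mice, that spread lies between pools and not between animals.

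The members and lists were chosen with earlier results of these data known. Named were the members, up to 3 genes of smallest p per list, and the 5 genes most correlated with the members. Of the list symbols, 8 were not found in the table under that name. Alternatives were the level filter, the scaling, the fit, the feature rule, replicate number as a block, array spread as a covariate, and single arrays left out.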

Additional observations from a re-analysis of the deposited data

Results flagged for a closer look

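Of 20 groups of 4 arrays checked (10 genes in both genotypes), 1 held an array far from the other 3, where chance gives about 5% of groups. Mcm2 on elektra replicate 4 was at 9.72, against 9.33 to 9.37 on the other elektra arrays, and this gap took up 0.913 of the range of the group. Without this array the log2 difference of Mcm2 was 0.23, its lowest value over the 19 alternatives.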

How the results depend on the processing

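No member passed the adjusted threshold of limma in any of 19 alternatives, and 0 were lower at an unadjusted p of 0.05 in each. The median log2 difference of the members stayed between 0.22 (without wildtype replicate 2) and 0.37 (without wildtype replicate 4), where 0.29 was reported. Each value lay within 0.15 of it, the SD between arrays of the members' median signal. The alternatives share most of their arrays, so this closeness is no evidence of stability. The count of members higher at an unadjusted p of 0.05, reported as 6, was 3 after quantile normalization, where 5.40% of all genes were. It was 2 with each array's interquartile range as covariate, where 4.52% were. Without both arrays of low Xist (replicate 3 of each genotype) it was 1, where 6.1% were. With single arrays left out it was 3 to 8, where 4.93% to 8.64% were. The count of members without overlap, reported as 3, was 1 after quantile normalization, where elektra lay wholly above wildtype for 2.72% of all genes. With single arrays left out this count was 3 to 8, where 4.82% to 7.7% of all genes were so placed. The causes were not tested, except that leaving arrays out lowers the number of samples. Mcm10 was at 0.0136 after median centring, 0.0235 with the covariate and 0.0330 without wildtype replicate 4, and its lowest value with a single array left out was -0.0807. The other 9 members kept their direction wherever they were tested, and the stricter level filter left 8 members to test, without Mcm10 and Cdc45. Samples of the same number had r of deviations of 0.14, 0.02, 0.13 and -0.0017 for replicates 1 to 4. Samples of different numbers had -0.22 to 0.14. These values do not settle whether samples were paired by number, since a low r over all genes can go with pairing, and both arrays of low Xist were replicate 3. With a replicate block 6 members were again higher. The block lowered the standard error of Mcm2, Mcm3, Mcm5, Mcm6, Mcm7 and Cdt1 and raised that of Mcm4, Mcm10, Cdc45 and Gmnn. Over all genes, 0 passed with the block, against 6 reported, and the median of all genes was 0.06 with arrays centred.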
